A study of Mus musculus with 4 samples.

Results

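S100 proteins are small calcium-binding proteins with paired EF-hand domains, and they act as dimers that dock onto other proteins. Annexin A2 binds phospholipid membranes in a calcium-dependent way, and it joins with a dimer of S100A10, which has lost its own calcium binding, in a complex at the cell surface that gathers plasminogen and its activators. Together these 8 genes (*S100a1*, *S100a4*, *S100a6*, *S100a10*, *S100a11*, *S100a13*, *S100a16* and *Anxa2*) were described by cell type and genotype in mouse embryonic hearts, out of 32285 genes in the files. They were chosen by their measured levels in the endocardium, because *S100a6*, *S100a10* and *S100a11* differed between genotypes in another way in chamber than in cushion endocardium. The genotype differences in those 2 cell types are therefore given as a description with no test, while levels between cell types, and genotype differences in cardiomyocytes, mesenchymal and epicardial cells, were tested.

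The hearts came from E10.5 embryos, when the endocardium lines the trabeculating chambers and, in the cushions, gives rise to mesenchyme. Control hearts carried floxed *Tie2* alleles (Tie2flfl, libraries 5 and 7), and *Tie2-cko* hearts carried the same alleles with *Nfatc1*-driven Cre (Nfatcre-Tie2flfl, libraries 6 and 8). The Cre is a knock-in active in endocardial cells, the floxed alleles are shared by both groups, and both sexes were used in mice of mixed 129 and C57/BL6 strain. Each library was a 10x single-cell library of the dissected cardiogenic region, hearts of the genotypes came from the same litter, and the labels give no sign that libraries 5 and 6, or 7 and 8, belong together. With 2 libraries per genotype an exact permutation test cannot give a two-sided p below 0.333.

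Before filtering, 29 to 62 barcodes were shared between any 2 libraries. After filtering, 5684 to 10097 cells per library remained, with a median of 14898 to 25740 UMIs per cell. Named cell types were cardiomyocytes (CMs), chamber and cushion endocardial cells (EdCs), cushion mesenchymal cells (MCs), epicardial cells, vascular-like endothelial cells and 4 types that are not part of the heart wall. The libraries did not hold the same cells. An unnamed cluster led by *Cxcl13* and *Barx1* had 537 and 562 cells in libraries 5 and 6 and 3 and 1 in libraries 7 and 8. Cell types rest on markers, and the 8 genes and 34 related genes were kept out of the clustering. *Tek*, the gene of TIE2, checked the labels. Chamber EdCs held 0.89 (library 5) and 1.01 (library 7) UMIs per 10000 of it in controls against 0.122 (library 6) and 0.15 (library 8) in *Tie2-cko* hearts. Cushion EdCs held 0.885 and 1.66 in controls against 0.354 and 0.293, so more of it remained there than in chamber EdCs. In vascular-like cells the libraries overlapped (0.381 to 0.736). Levels below are means over cells in UMIs per 10000 UMIs of a cell, compared only within a gene.

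The 7 S100 genes lie on chromosome 3 in 2 groups (GRCm38, GENCODE M21). *S100a1* (3:90511034-90514392, minus strand), *S100a13* (90514435-90524581), *S100a16* (90537254-90543151), *S100a4* (90603771-90606045) and *S100a6* (90612882-90624181) form the first group. *S100a11* (93520488-93526287) and *S100a10* (93555080-93564643) lie 28792 bases apart in the second, 2896306 bases from *S100a6*. *Anxa2* is on chromosome 9 (69453620-69491795). *S100a1* and *S100a13* are transcribed away from each other from starts separated by 42 bases.

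Sequences before the starts of genes whose levels rose or fell together across cell types are given here from RefSeq (GRCm38.p6), on the strand of the gene and with the bases of annotated GENCODE exons taken off. Capitals mark motifs searched on both strands in the 250 bases before the RefSeq start, which were the forkhead motif GTAAACA, the TATA box motif TATAAA, the E-box motif CACGTG and the AP-1 motif TGANTCA. Entries were found for 7 of the 8 genes, and *S100a10* has none here.

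S100a11 (chr3:93520246-93520487, plus strand): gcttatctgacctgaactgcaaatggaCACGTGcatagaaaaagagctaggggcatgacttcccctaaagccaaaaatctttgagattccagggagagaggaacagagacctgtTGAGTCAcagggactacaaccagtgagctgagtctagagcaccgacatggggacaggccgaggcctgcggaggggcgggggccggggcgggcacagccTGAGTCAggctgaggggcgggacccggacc
Anxa2 (chr9:69453433-69453619, plus strand): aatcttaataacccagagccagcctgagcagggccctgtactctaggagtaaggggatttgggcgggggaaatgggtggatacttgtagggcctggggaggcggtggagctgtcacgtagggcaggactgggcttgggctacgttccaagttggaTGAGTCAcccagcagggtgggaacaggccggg
S100a6 (chr3:90612644-90612881, plus strand): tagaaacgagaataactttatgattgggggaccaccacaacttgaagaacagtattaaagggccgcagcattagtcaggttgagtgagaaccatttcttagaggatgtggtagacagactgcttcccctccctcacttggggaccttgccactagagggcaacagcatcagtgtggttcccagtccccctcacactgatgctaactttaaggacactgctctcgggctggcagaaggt
S100a13 and S100a1, the bases between them (chr3:90514393-90514434, strand of S100a13): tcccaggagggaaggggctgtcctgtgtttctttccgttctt

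The *S100a11* window holds 2 AP-1 motifs and 1 E-box motif, and the *Anxa2* window holds 1 AP-1 motif and, inside annotated exon bases that are not printed, 1 TATA box motif. The window of *S100a6* holds none of the 4 motifs, that of *S100a4* a TATA box motif only, and 1 of the 2 *S100a16* windows an AP-1 motif. The forkhead motif is in none of the members' windows. Of 32851 promoter entries, the same 250 bases hold the AP-1 motif in 6.75%, the E-box motif in 6.02%, the TATA box motif in 12.4% and the forkhead motif in 3.17%. These matches describe letters and do not show that a factor binds.

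*S100a6*, *S100a10*, *S100a11* and *Anxa2* shared the epicardial cells as their highest cell type. *S100a10* reached 12.8 in libraries 5 and 6, 13.7 in library 7 and 15.1 in library 8 there, and no other cell type came above 7.51 in any library. The levels of *S100a11*, whose product is a partner of annexin A1, were 10.1 and 11.7 in control and 10.8 and 13.2 in *Tie2-cko* epicardial cells. *Anxa2* was at 6.15 and 6.61 in control and at 6.39 and 7.88 in *Tie2-cko* epicardial cells. For all 3 genes the lowest epicardial library lay above the highest library of the next cell type, and the libraries of the genotypes overlapped.

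*S100a6*, also called calcyclin, was likewise highest in epicardial cells, where it ranged from 3.63 to 5.43 over the 4 libraries. Cushion EdCs followed with 1.82 to 3.45 and MCs with 0.722 to 1.19, each apart from the next. It was one of the genes that led the epicardial cluster, although it had no part in the clustering. In CMs it was at 0.0465 to 0.067. *S100a4*, known from fibroblasts and metastatic cells, was low throughout. It was highest in epicardial cells (0.0912 to 0.141) and cushion EdCs (0.0744 to 0.15), which overlapped, and in CMs it rested on 6 to 19 UMIs per library.

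*S100a1*, a regulator of calcium cycling in muscle, had another order of cell types. CMs held 0.934 and 1.08 in control and 0.798 and 1.01 in *Tie2-cko* libraries, and the next type, immune cells or platelets, ranged from 0.21 to 0.53 and stayed below them. From there on each cell type overlapped with the next in the order, down to red blood cells at 0.124 to 0.178. Among the 6 CM clusters *S100a1* ranged from 0.624 ± 0.0396 in a cluster led by *Myh7* and *Ttn* to 1.58 ± 0.447 in a cluster led by *Shox2* and *Bmp2*, genes of the sinoatrial and atrioventricular canal myocardium (SD, n = 4 libraries). The *Shox2* cluster held 0.967 in library 6 and 1.55 to 2.01 in the others. *Anxa2* was highest in another CM cluster, led by *Rspo3* and *G0s2*, at 2.59 ± 0.125 against 0.653 ± 0.0644 in a cluster led by *Tnni2* and *Casq1*.

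*S100a16* was highest in the vascular-like endothelial cells. Vascular-like cells held 3.71 and 3.11 in control and 3.04 and 3.45 in *Tie2-cko* libraries, above all other types in each library, from only 43 to 82 cells per library. It was one of the genes that led that cluster. Cushion EdCs (0.816 to 1.12), neural cells (0.195 to 1.01) and chamber EdCs (0.49 to 0.941) followed, and CMs, at 0.00538 to 0.00817, lay at the level of red blood cells (0.00396 to 0.0263). *S100a13*, which takes part in the non-classical export of FGF1, differed little between vascular-like cells (0.823 to 2.09), chamber EdCs (1.03 to 1.61), cushion EdCs (1.02 to 1.53) and CMs (0.925 to 1.44), all of which overlapped. Its epicardial level of 0.157 to 0.295 was the lowest among the cell types of the heart wall.

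**Figure D1:**
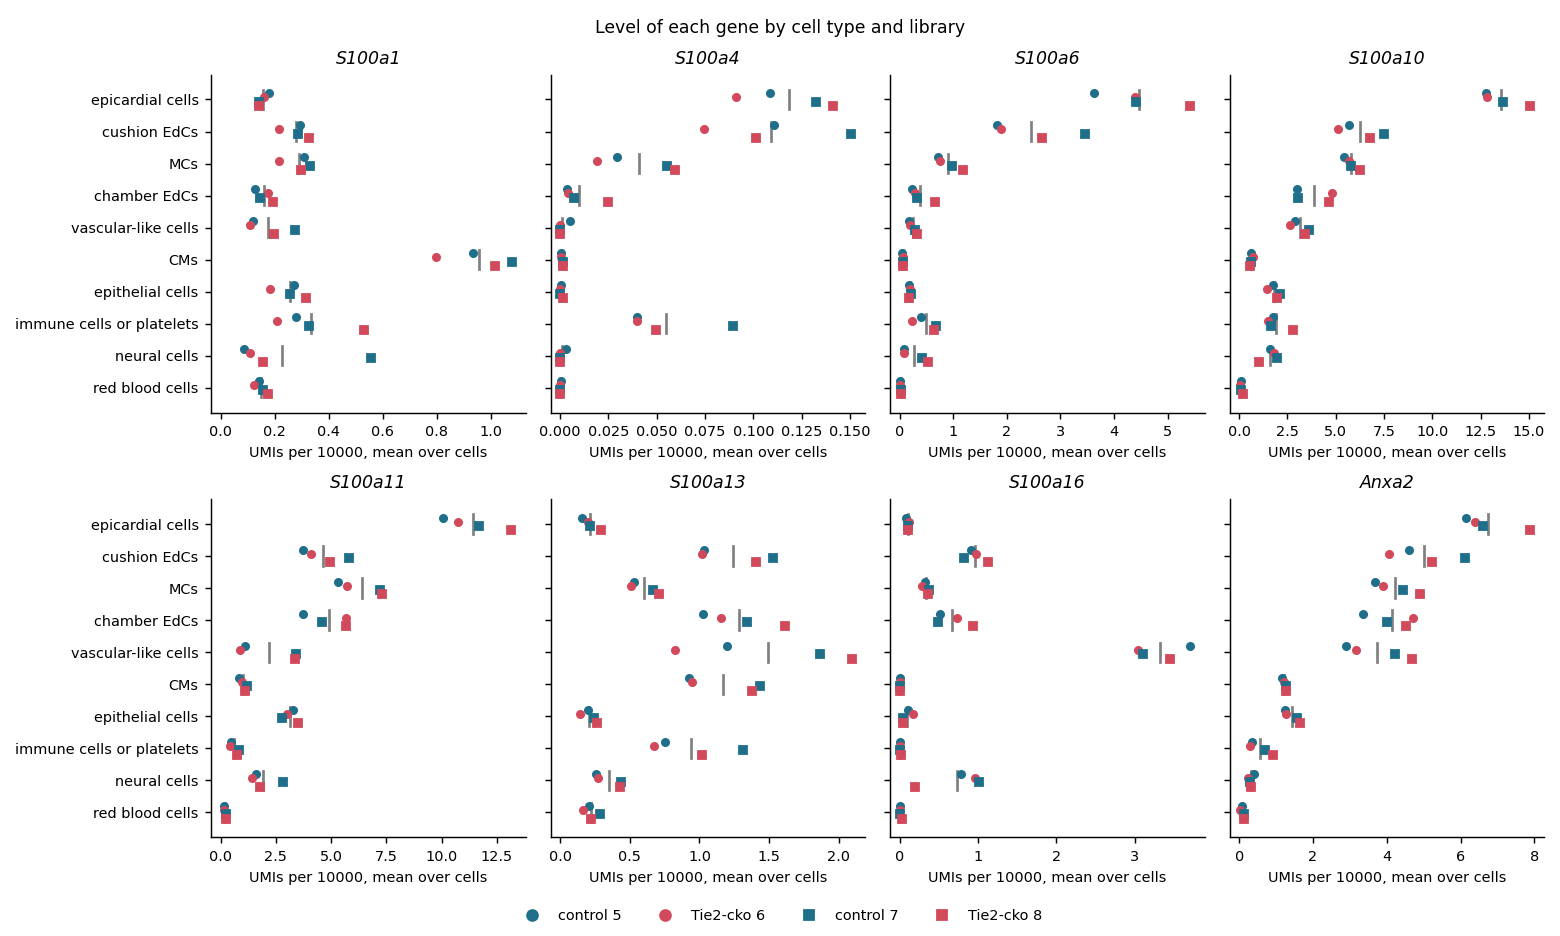
Level of each gene in UMIs per 10000 (horizontal axis, linear, its own scale per gene) for 10 cell types, with 1 point per library (circles libraries 5 and 6, squares 7 and 8; blue control, red *Tie2-cko*) and a grey bar at the mean of the 4 libraries. *S100a6*, *S100a10*, *S100a11* and *Anxa2* are highest in epicardial cells, *S100a1* in CMs and *S100a16* in vascular-like cells.

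The likeness of the members was measured by Pearson's r of log2 levels over the 27 clusters of the control libraries, which share libraries and depth, against 8953 genes. *S100a10* and *S100a11* were each other's closest gene (r = 0.903). The next were *Rhoa* (0.898) and *Cdc42ep5* (0.884) for *S100a10*, and *Capns1* (0.882) and *Rhou* (0.876) for *S100a11*. *Anxa2* was closest to *Capn2* (0.881), *Slc25a24* (0.879) and *Cgnl1* (0.874), and its r with *S100a10* was 0.843. *S100a6* was closest to *Anxa1* (0.909), *Pcsk5* (0.887) and *S100a10* (0.867), and *S100a4* to *S100a6* (0.856), *Anxa1* (0.826) and *Pcsk5* (0.807).

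The other members lay apart from that set. *S100a1* was closest to *Ndrg4* (0.92), *Cox6a2* (0.909) and *Kcne1* (0.904). *Cox6a2* encodes a heart and muscle subunit of cytochrome c oxidase and *Kcne1* a subunit of a cardiac potassium channel. *S100a13* was closest to *Crip2* (0.875), *Snx3* (0.856) and *Rnasek* (0.853), with r = 0.731 for its neighbour *S100a1*. *S100a16* was closest to *Cdc42ep1* (0.909), *Rhoj* (0.899) and *Gm16104* (0.896).

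Chamber and cushion EdCs differed in 6 of the 8 members (edgeR quasi-likelihood test on sums per library, library as a block, Benjamini-Hochberg adjusted p under 0.05 over all 12029 genes tested). Of all genes tested, 24.4% were higher and 23.9% lower in chamber EdCs. *S100a6* was 0.38 ± 0.191 in chamber and 2.46 ± 0.765 in cushion EdCs (SD, n = 4 libraries), a log2 difference of -2.79 ± 0.17 (SE) with adjusted p = 1.1e-08 in edgeR. *S100a4* was lower with it (-3.59 ± 0.33, edgeR adjusted p = 8.27e-07), from 1 to 13 UMIs per library in chamber EdCs. *S100a1* (-0.72 ± 0.11), *S100a10* (-0.60 ± 0.13) and *S100a16* (-0.43 ± 0.08) were also lower in chamber EdCs, and *S100a13* was higher (0.24 ± 0.07).

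*S100a11* (0.19 ± 0.09, edgeR adjusted p = 0.0862) and *Anxa2* (-0.08 ± 0.09, edgeR adjusted p = 0.515) did not pass the test. Each fit averages both genotypes. For *Anxa2* the ratio of chamber to cushion level was 0.73 and 0.652 in control and 1.16 and 0.868 in *Tie2-cko* libraries. For *S100a11* it was 1.00 and 0.787 against 1.39 and 1.15. The call for *S100a10* was lost in DESeq2 (adjusted p above 0.05), and that for *S100a13* was lost when library 6 (0.17) or library 8 (0.19) was left out, and when counts were scaled by total UMIs. Scaling by total UMIs shifted the median log2 difference of all genes by -0.14 in this comparison, and the share of higher genes among all called was 31.6% under it and 50.55% under the TMM scaling used here.

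Cushion EdCs and the MCs that arise from them differed in 6 members as well, where 29.8% of 12482 genes tested were higher and 29.4% lower in MCs. *S100a16* (-1.46 ± 0.08), *S100a4* (-1.29 ± 0.16), *S100a6* (-1.27 ± 0.08) and *S100a13* (-0.99 ± 0.06) were lower in MCs, *Anxa2* was lower by a small step (-0.18 ± 0.05, edgeR adjusted p = 0.00304), and *S100a11* was higher (0.55 ± 0.04, edgeR adjusted p = 1.17e-10). *S100a10* (-0.02 ± 0.05) and *S100a1* (0.15 ± 0.08) did not pass the test. *S100a11* was at 5.3 and 7.21 in control and 5.71 and 7.29 in *Tie2-cko* MCs, above the cushion EdCs of the same library in all 4. The call for *Anxa2* was lost without library 7 (-0.11).

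Epicardial cells differed from MCs in all 8 members, 5 of them higher and 3 lower, while 31.2% of 12937 genes tested were higher and 30.6% lower in epicardial cells. *S100a6* was 4.89-fold higher (log2 difference 2.29 ± 0.04), *S100a4* 2.88-fold, *S100a10* 2.36-fold, *S100a11* 1.82-fold and *Anxa2* 1.65-fold. *S100a16* (-1.70 ± 0.09), *S100a13* (-1.44 ± 0.07) and *S100a1* (-0.86 ± 0.10) were lower. These calls held in each alternative run.

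CMs differed from chamber EdCs in 7 members, where 37.2% of 15369 genes tested were higher and 32.3% lower in CMs. *S100a1* was 7.64-fold higher in CMs (2.93 ± 0.08). Of the 6 members lower in CMs, *S100a16* differed most (-6.28 ± 0.17), followed by *S100a4* (-2.37 ± 0.50), *S100a10* (-2.36 ± 0.09), *S100a6* (-2.27 ± 0.16), *S100a11* (-2.04 ± 0.07) and *Anxa2* (-1.54 ± 0.07). *S100a13* did not pass the test (0.12 ± 0.06, edgeR adjusted p = 0.0941), and its sign turned to -0.14 when counts were scaled by total UMIs, which shifted the median of all genes by -0.26 and took the share of higher genes among all called from 53.6% to 38%. The cell types are clusters of the same cells, so these tests compare groups that other genes had already separated.

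**Figure D2:**
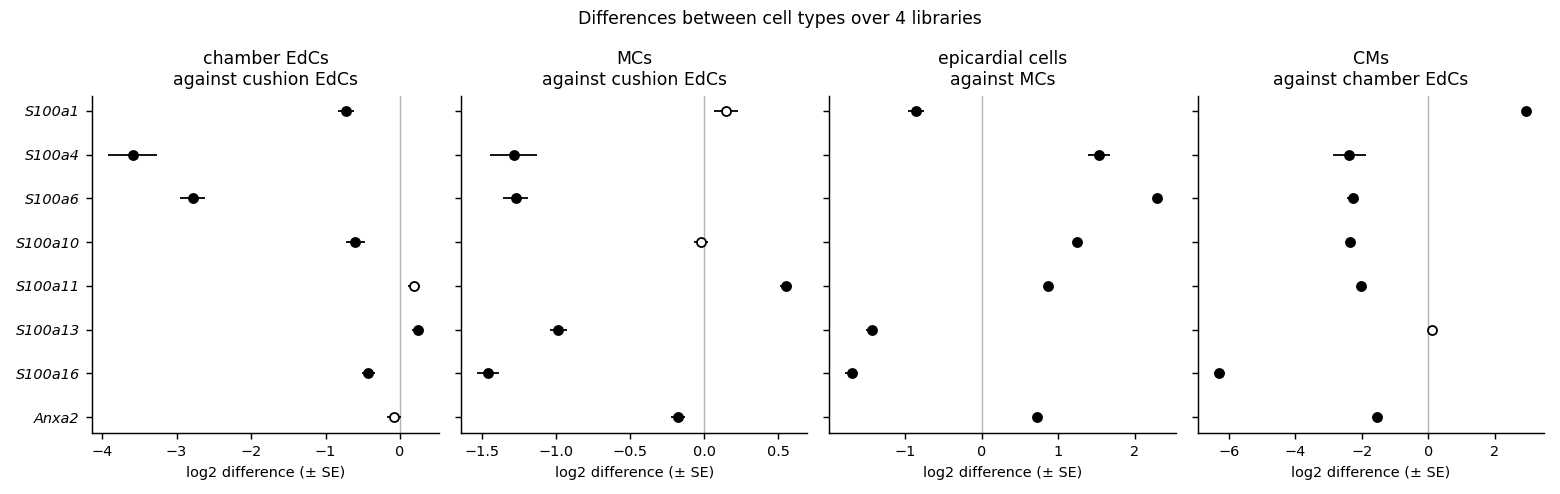
Fitted log2 difference (horizontal axis) ± SE for the 8 genes in 4 comparisons of cell types over 4 libraries, with filled points for an edgeR adjusted p under 0.05. *S100a6* differs by -2.79 between chamber and cushion EdCs, whereas *S100a11* and *Anxa2* lie near 0 there in a fit that averages both genotypes.

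The related genes chosen with the members followed in part. Of the 9 other S100 genes, at most 2 passed the filter on low counts in any comparison. *S100b*, a marker of glia and melanocytes, was 10.1-fold higher in MCs (0.0741) than in cushion EdCs (0.00546), where it rested on 1 to 9 UMIs per library. Of the 11 other annexins, 8 were tested between chamber and cushion EdCs, of which 1 was higher and 4 lower in chamber EdCs. *Anxa8* (-5.17 ± 0.53), *Anxa1* (-2.32 ± 0.27) and *Anxa3* (-0.46 ± 0.06) were among the lower ones, and the median of the list was -0.30 against 0.00 for all genes. The size for *Anxa8* rested on 0 to 1 UMIs per library in chamber EdCs.

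In MCs against cushion EdCs 2 annexins were higher, among them *Anxa5* (0.81 ± 0.04), and 6 lower, among them *Anxa3* (-1.05 ± 0.06). Epicardial cells held 3 annexins above MCs, with *Anxa1*, the partner of S100A11, 4.02-fold higher, and 3 below, with *Anxa6* (-1.38 ± 0.05) and *Anxa5* (-0.64 ± 0.04). CMs held 2 above and 6 below chamber EdCs of 9 tested.

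Of the 14 partners and targets, 10 were tested between chamber and cushion EdCs, with 3 higher and 4 lower. *Plaur*, the urokinase receptor of the plasminogen system, was lower in chamber (0.0561) than in cushion EdCs (0.265), by 2.25 ± 0.14 on the log2 scale, and lower still in MCs (-2.90 ± 0.12 against cushion EdCs). *Myh9*, the non-muscle myosin bound by S100A4, was lower in chamber EdCs (-0.45 ± 0.06). *Dlc1*, a RhoGAP bound by S100A10, was higher in MCs than in cushion EdCs (0.78 ± 0.05) and lower in epicardial cells than in MCs (-1.82 ± 0.06), and *Cacybp*, the calcyclin-binding protein, was 1.38-fold higher in epicardial cells.

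Of 13 partners tested in CMs against chamber EdCs, 7 were higher and 5 lower. *Ryr2* (36.9-fold) and *Atp2a2* (7.48-fold), the calcium release channel and calcium pump that S100A1 binds, and *Kcnk3* (36.1-fold), a potassium channel bound by S100A10, were higher. *Plat*, the tissue plasminogen activator (-4.28 ± 0.15), and *Myh9* (-2.38 ± 0.08) were lower.

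In chamber EdCs, *S100a10* was at 2.98 (library 5) and 3.05 (library 7) in controls against 4.81 (library 6) and 4.65 (library 8) in *Tie2-cko* hearts, from 133 to 598 cells per library. Both *Tie2-cko* libraries lay well above both controls, by 1.57-fold in the means. *Anxa2*, whose product S100A10 binds, was at 3.36 and 3.99 in controls against 4.72 and 4.53, and *S100a11* at 3.75 and 4.59 against 5.67 in each *Tie2-cko* library. *S100a16* was at 0.518 and 0.49 against 0.729 and 0.941, and *S100a1* at 0.126 and 0.146 against 0.174 and 0.195.

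Thus 5 of the 7 members that passed the filter on low counts had both *Tie2-cko* libraries above both controls in chamber EdCs, where 19.2% of 11508 genes did. *S100a10* and *S100a11*, which are among the 5, were chosen by their genotype differences in the endocardium. The count therefore describes the choice and is not a test of the members against all genes. The fitted log2 differences, for which no test was made, were 0.72 for *S100a16*, 0.57 for *S100a10*, 0.38 for *S100a11*, 0.30 for *Anxa2* and 0.14 for *S100a1*. *S100a6* did not separate the genotypes, with 0.238 and 0.328 in control and 0.293 and 0.66 in *Tie2-cko* libraries. Its fitted difference of 0.68 rested on library 8 and was -0.08 without that library. *S100a13* overlapped too (1.03 and 1.34 against 1.15 and 1.61), and *S100a4* was below the filter at 1 to 13 UMIs per library.

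In cushion EdCs the same genes gave another picture. *S100a10* was at 5.69 and 7.51 in controls against 5.14 and 6.79, *S100a11* at 3.74 and 5.83 against 4.07 and 4.94, and *Anxa2* at 4.61 and 6.13 against 4.05 and 5.22. Their genotypes overlapped, and libraries 7 and 8 lay above libraries 5 and 6. *S100a6* followed the same order, with 1.82 and 3.45 in control and 1.89 and 2.66 in *Tie2-cko* libraries.

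Fitted differences in cushion EdCs were -0.39 for *S100a6*, -0.27 for *Anxa2*, -0.23 for *S100a10*, -0.21 for *S100a1*, -0.18 for *S100a13* and -0.16 for *S100a11*. Without library 7 those of *S100a6* and *S100a11* were 0.16 and 0.19, and without library 6 that of *S100a11* was 0.03. Only *S100a16* had both *Tie2-cko* libraries above both controls (0.976 and 1.12 against 0.911 and 0.816), where 18.2% of 11444 genes did. Only *S100a4* had both below (0.0744 and 0.101 against 0.111 and 0.15, from 24 to 94 UMIs), where 9.67% did.

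**Figure D3:**
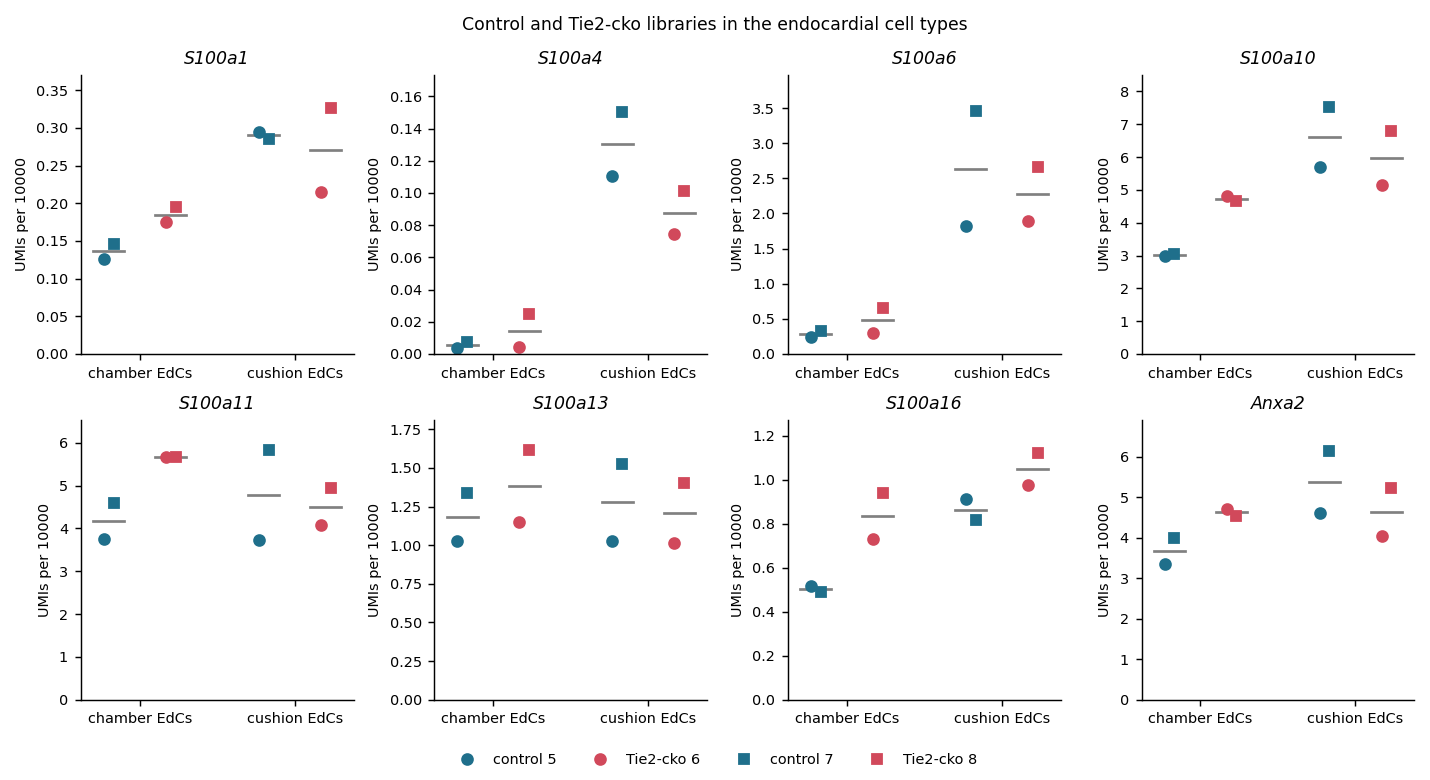
Level in UMIs per 10000 (vertical axis from 0) of each gene in chamber and cushion EdCs, with 1 point per library (circles libraries 5 and 6, squares 7 and 8; blue control, red *Tie2-cko*) and grey bars at the genotype means. In chamber EdCs both *Tie2-cko* points of *S100a10*, *S100a11*, *S100a16*, *S100a1* and *Anxa2* lie above both controls. In cushion EdCs both *Tie2-cko* points of *S100a11* lie between the controls. For *S100a10* and *Anxa2* there, library 8 lies between the controls and library 6 below both.

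The ratio of chamber to cushion level put both cell types of a library side by side. For *S100a10* it was 0.523 (library 5) and 0.405 (library 7) in controls, against 0.937 (library 6) and 0.685 (library 8) in *Tie2-cko* hearts. For *S100a11* it was 1.00 and 0.787 against 1.39 and 1.15, for *Anxa2* 0.73 and 0.652 against 1.16 and 0.868, and for *S100a6* 0.13 and 0.095 against 0.154 and 0.248. The other members were ordered likewise, with 0.427 and 0.513 against 0.81 and 0.595 for *S100a1*, 0.999 and 0.876 against 1.13 and 1.15 for *S100a13*, 0.569 and 0.601 against 0.747 and 0.839 for *S100a16*, and 0.0315 and 0.049 against 0.0547 and 0.243 for *S100a4*. Thus all 8 members had a higher ratio in each *Tie2-cko* library than in either control, where 17.9% of the 12029 genes tested between these cell types did. The choice of *S100a6*, *S100a10* and *S100a11* rested on this contrast, so the count describes the choice and is not a test of the members against all genes. The *S100a4* ratios rested on 1 to 13 UMIs per library in chamber EdCs, with 1 UMI in library 6.

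To compare shares of cells with a UMI at the same depth, each cell was thinned to 5500 UMIs. In chamber EdCs, cells with *S100a10* made up 71.3% and 74.5% in control and 83.5% and 83.0% in *Tie2-cko* libraries, and cells with *S100a16* 23.0% and 21.3% against 33.9% and 36.6%. For *S100a11* the shares were 78.4% and 85.9% against 90.9% and 89.3%. The shares of *Anxa2* overlapped (72.2% and 76.4% against 79.3% and 75.8%). Those of *S100a1* overlapped too and leaned the other way (9.09% and 7.94% against 8.26% and 7.46%), so that the separation of its mean levels was not seen in these shares. Thinning also left out the shallower cells, so this does not single out depth. Those of *S100a6* were higher in both *Tie2-cko* libraries (8.24% and 10.8% against 12.4% and 18.6%), although its mean levels overlapped.

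In red blood cells, taken here as a comparison type for background counts without a test that they lack these genes, 3.31% to 9.83% of cells held *S100a10*, 8.28% to 12.5% *S100a11*, 0.177% to 0.578% *S100a16* and 0.207% to 1.15% *S100a6*. Before thinning, cells with *S100a10* made up 86.6% and 88.3% of control and 94.0% and 93.5% of *Tie2-cko* chamber EdCs, at median depths of 14836, 12511, 27249 and 10975 UMIs in libraries 5, 7, 6 and 8. Thinning left out 12 to 44 shallower chamber EdCs per library. Within chamber EdCs of a library, *Anxa2* was found in 78.1% to 85.1% of cells with *S100a10* and in 50.0% to 59.6% of the others, as counts of the same cells that also share depth.

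Another 1540 cells formed a cluster led by *Gngt2*, *Irx5* and *Emcn* with a median of 1884 UMIs, which the limit on low UMIs, set after the clusters had been seen, kept out of the chamber EdCs (5.51% and 4.66% of control and 6.23% and 2.57% of *Tie2-cko* cells). There *S100a10* was at 3.44 and 3.87 in control and 4.52 and 5.41 in *Tie2-cko* libraries, and *Anxa2* at 3.38 and 3.46 against 3.89 and 4.17. Both genes were above both controls in these cells. *S100a6* (0.329 and 0.616 against 0.766 and 0.638) was above them by a narrow step, and *S100a11* (4.32 and 5.56 against 4.21 and 6.39) overlapped. These cells came from the same 4 libraries and are not a separate test, and the share of all genes in this order was not counted.

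Markers of other cells also moved with genotype in chamber EdCs, and their part in the members' values was not tested. All 6 red blood cell markers were lower in both *Tie2-cko* libraries, with sums of 87.6 and 38.0 in control and 14.5 and 13.5 in *Tie2-cko* libraries. Of 7 immune or platelet markers 4 were lower (sums of 0.149 and 0.176 against 0.0822 and 0.0809), with *Ptprc* at 0, and 4 of 8 MC markers were higher and 1 lower (0.954 and 1.05 against 1.14 and 1.45). The 4 chamber markers had higher sums as well (8.7 and 8.35 against 10.03 and 9.15), with 1 gene higher and 1 lower. The summed level of 5 neural markers was also higher (0.1 and 0.147 against 0.23 and 0.268), though by member 1 was higher and 1 lower. The sums of 7 cushion markers (2.12 and 2.34 against 2.07 and 2.51), 6 epicardial markers (0.0453 and 0.104 against 0.0927 and 0.109), 8 CM markers (10.3 and 12.8 against 7.62 and 13.7) and 8 dissociation stress genes (1.74 and 2.93 against 2.64 and 3.68) overlapped. In cushion EdCs 5 of 6 red blood cell markers were lower and 4 of 8 MC markers higher. Sums of dissociation stress genes (5.1 and 5.73 against 6.1 and 6.57) and of epicardial markers (0.127 and 0.15 against 0.212 and 0.219) were also higher there in both *Tie2-cko* libraries.

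No member passed the test for genotype in CMs, MCs or epicardial cells, the cell types outside the endocardium in which it was run. *Tek*, at 0.205 in control and 0.0363 in *Tie2-cko* MCs, did not pass it there either (-2.29 ± 0.33, SE, edgeR adjusted p = 0.54). The lack of a call therefore does not show that a member's level was the same in both genotypes. In MCs 0 of 12661 genes were called in edgeR (0%), with 128 at an unadjusted p under 0.05 and 9 called by DESeq2. In CMs 0 of 15578 were called (0%), with 62 at an unadjusted p under 0.05 and 2 called by DESeq2. In epicardial cells 5 of 11896 genes (0.042%) were called. Leaving out a library, or adding a term for libraries 5 and 6 against 7 and 8, called up to 101 genes but none of the members.

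Among MCs, *S100a10* was at 5.41 and 5.79 in control and 5.68 and 6.25 in *Tie2-cko* libraries (0.03 ± 0.14, SE), and *Anxa2* at 3.68 and 4.43 against 3.91 and 4.89 (0.02 ± 0.18). *S100a1* had the widest fitted difference there (-0.35 ± 0.20), at 0.31 and 0.331 against 0.217 and 0.3, and was the 1 member of 8 with both *Tie2-cko* libraries below both controls, where 8.16% of genes were. In epicardial cells *S100a6* was at 3.63 and 4.41 in control and 4.4 and 5.43 in *Tie2-cko* libraries (0.20 ± 0.20) and *S100a13* at 0.157 and 0.214 against 0.2 and 0.295 (0.34 ± 0.25), so that both overlapped. *S100a16*, at 0.086 and 0.103 against 0.113 and 0.103, was the 1 member of 8 with both *Tie2-cko* libraries above, by a narrow step, where 14.7% of genes were.

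In CMs no member separated the genotypes, where 12.6% of genes had both *Tie2-cko* libraries above and 7.32% had both below. The fitted differences of the 8 genes lay between -0.24 ± 0.33 for *S100a16* and 0.17 ± 0.14 for *S100a6*. *S100a1* was at -0.12 ± 0.13 and *S100a10* at 0.06 ± 0.14 there.

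In most cell types *S100a6*, *S100a11*, *S100a13* and *Anxa2* were higher in both libraries 7 and 8 than in libraries 5 and 6. Each set holds 1 library per genotype. Levels in 7 and 8 were above those in 5 and 6 in 10 of 10 cell types for *S100a13*, in 9 for *S100a6*, in 8 for *S100a11* and *Anxa2*, in 5 for *S100a1*, *S100a4* and *S100a10* and in 1 for *S100a16*. In MCs this held for 7 of 8 members and 19.9% of genes tested, in CMs for 6 of 8 and 24.2%, in epicardial cells for 6 of 8 and 18.2%, in cushion EdCs for 5 of 8 and 18.3%, and in chamber EdCs for 2 of 7 and 18.0%. The reverse order held for 1 of 8 members and 36.7% of genes in CMs, and for 1 of 8 and 33.4% in epicardial cells. It held for no member in MCs (36.5% of genes), cushion EdCs (29.0%) or chamber EdCs (26.1%). Many other genes thus also separated these sets, more of them with lower levels in libraries 7 and 8. For *S100a13* in CMs the levels were 0.925 and 0.947 in libraries 5 and 6 and 1.44 and 1.37 in libraries 7 and 8. *S100a11* in vascular-like cells was at 1.09 and 0.861 in libraries 5 and 6 and at 3.39 and 3.36 in libraries 7 and 8.

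Within each of these sets the ratio of the *Tie2-cko* to the control library in chamber EdCs was 1.62 and 1.53 for *S100a10*, 1.51 and 1.24 for *S100a11*, 1.40 and 1.14 for *Anxa2*, 1.23 and 2.01 for *S100a6* and 1.41 and 1.92 for *S100a16* (libraries 6 over 5 and 8 over 7). In cushion EdCs it was 0.903 in each set for *S100a10*, 0.879 and 0.852 for *Anxa2*, 1.09 and 0.847 for *S100a11* and 1.04 and 0.77 for *S100a6*. Within both sets *S100a10*, *Anxa2* and *S100a13* (1.12 and 1.21 in chamber, 0.988 and 0.918 in cushion EdCs) were above the control library in chamber EdCs and below it in cushion EdCs, whereas *S100a6* and *S100a11* were below it in cushion EdCs in only 1 of the sets. The *S100a13* ratio of 0.988 is close to 1. The labels do not pair these libraries, and *S100a6*, *S100a10* and *S100a11* were chosen by this contrast. The order is therefore a description, and the share of all genes with it was not counted.

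**Figure D4:**
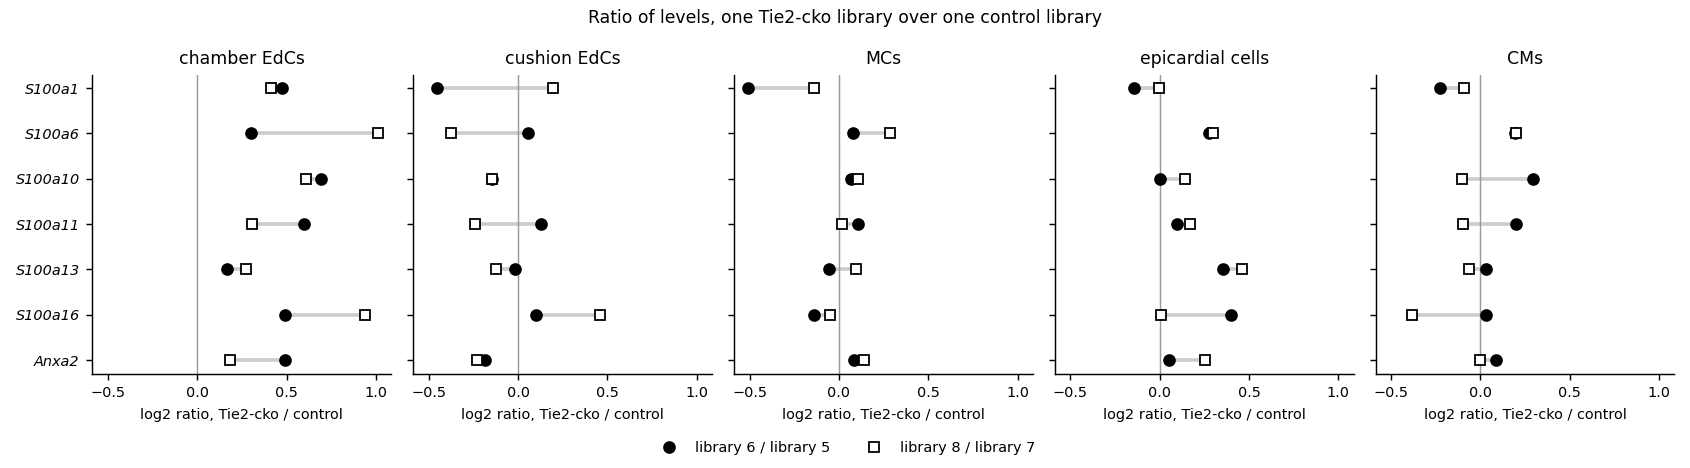
Log2 ratio of the level in a *Tie2-cko* library to that in a control library (horizontal axis) for 7 genes in 5 cell types, library 6 over 5 (filled circles) and 8 over 7 (open squares), joined by a grey line. *S100a4* is left out because it rests on few UMIs, all points of chamber EdCs lie above 0, and those of *S100a10*, *S100a13* and *Anxa2* in cushion EdCs lie below 0. The pairs of libraries are not given by the labels.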

How the data were processed

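Per the labels, each library is a 10x matrix of UMI counts that the authors made with Cell Ranger on mm10 (submitters' processing notes). The deposited counts were used unnormalised. Barcodes under 500 detected genes or 1000 UMIs, or over 10% mitochondrial UMIs, were left out, and the cells with the highest Scrublet scores (scanpy 1.11.5), 0.8% per 1000 barcodes, were taken out as doublets. They were clustered in Seurat 5.3.0 (2000 variable genes, 30 components, 20 neighbours, resolution 0.8). Libraries held 169361996 to 259775540 UMIs, and intervals were not drawn from cells.

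Levels are means of UMIs per 10000. Counts summed per library and cell type were tested with edgeR 4.0.16 (quasi-likelihood, TMM, filterByExpr, Benjamini-Hochberg), with the library as a block between cell types. SE is the log2 difference divided by the root of F. Scripts were tested on simulated data. The labels do not say that libraries were separate embryos beyond their numbers, so p-values for genotype measure the spread between libraries. Those between cell types measure how much the difference within a library varied from library to library. Alternatives were DESeq2 1.42.0, other normalisations, filters, clusterings and left-out libraries. The members and the lists of related genes and markers were chosen with earlier results of these data known. Genes named from the related lists were, in each comparison between cell types, the 5 with the lowest adjusted p among those called, and the genes most like a member were the 3 with the highest correlation.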

Additional observations from a re-analysis of the deposited data

How the results depend on the processing

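No member passed the genotype test in CMs, MCs or epicardial cells under any alternative run. Counts of genes called did move. In CMs (0) they were 2 with DESeq2, 63 with a term for libraries 5 and 6 against 7 and 8, and 0 to 5 without 1 library. In MCs (0) they were 9 with DESeq2, 23 without a filter, 101 with that term and 0 to 52 without 1 library. In epicardial cells (5) they were 10 without a filter, 66 with the term and 6 to 52 without 1 library. Members above 0 in cushion EdCs (1) numbered 1 to 4 without 1 library.

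Leaving out 1 library turned the sign of small genotype differences, and the ranges of log2 differences follow. In CMs they were -0.25 to 0.0036 for *S100a1*, -0.81 to 0.45 for *S100a4*, -0.11 to 0.22 for *S100a10*, -0.15 to 0.30 for *S100a11*, -0.29 to 0.29 for *S100a13*, -0.53 to 0.0555 for *S100a16* and -0.0256 to 0.0552 for *Anxa2*. In MCs they were -1.22 to 0.33 for *S100a4*, -0.24 to 0.47 for *S100a6*, -0.11 to 0.14 for *S100a10*, -0.31 to 0.24 for *S100a11*, -0.38 to 0.24 for *S100a13*, -0.35 to 0.0013 for *S100a16* and -0.23 to 0.23 for *Anxa2*. In epicardial cells they were -0.33 to 0.19 for *S100a4*, -0.0875 to 0.44 for *S100a6*, -0.12 to 0.21 for *S100a10*, -0.13 to 0.27 for *S100a11*, -0.11 to 0.63 for *S100a13* and -0.0515 to 0.30 for *Anxa2*. *S100a13* in CMs was 0.0369 under a stricter cell filter, and scaling by total UMIs, chosen after the data were seen, gave 0.0382 for *S100a11* and 0.0153 for *S100a13* in MCs and -0.14 for *S100a13* in CMs against chamber EdCs.

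Between cell types, *Anxa2* in chamber against cushion EdCs ranged from -0.23 to 0.0567 and *S100a10* in MCs against cushion EdCs from -0.0924 to 0.067. Calls were gained for *S100a11* (unfiltered, or without library 7) and *Anxa2* (without library 6) in chamber against cushion EdCs, for *S100a10* in MCs against cushion EdCs at resolution 1.2, and for *S100a13* in CMs against chamber EdCs without a filter. The causes were not tested. The labels give control and *Tie2-cko* libraries no shared replicate number, so the sets of libraries 5 and 6 and of 7 and 8 entered only as the alternative term above.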
